A study of Mus musculus with 6 samples.

Results

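The genes described here are 69 cytokine, chemokine, CD antigen, Fc receptor, lectin and interferon genes of the mouse cochlea. They were taken from the deposited lists of genes that the study called up-regulated or down-regulated after delivery of mesenchymal stromal cells (MSCs). The lists themselves were chosen by the study's own test of MSC treated against sound trauma animals, so the rule used the contrast described here. A gene was kept when its symbol began with one of a fixed set of immune gene stems, such as Il, Ccl, Cd, Fcgr, Stat or Gbp followed by its number or letter. The lists held 3878 genes, 3716 of them with a symbol, and 69 symbols matched, 60 in the up list of 1137 genes and 9 in the down list of 2741 genes. The whole table held 41096 genes. Symbols were given only for listed genes, so the immune genes outside the lists were not analysed here.

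All 6 libraries came from the left cochlea of female C57BL/6 mice (written C56Bl/6 in the labels) that were 4 weeks old and had been exposed to 16 kHz sound in the left ear for 4 h. The sound trauma group (specimens 6, 8 and 10, n = 3) received no cells. The MSC treated group (specimens 13, 18 and 20, n = 3) received MSCs of human Wharton's jelly, prepared from 3 umbilical cords, in 1 µl through the posterior semicircular canal, 48 h after the sound. The study's methods give artificial perilymph as the control injection, 72 h from treatment to RNA and 5 animals per group, whereas the labels describe the controls as noise alone and give 2 days. The cells were human and the host was mouse, no library of a mouse without sound exposure was analysed here, and nothing states which specimens shared a litter or a day. P-values therefore measure the spread between these specimens only. Whether RNA of the human cells reached the counts of mouse genes was not tested.

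Cytokines and chemokines are secreted proteins by which leukocytes and tissue cells signal to each other. Most interleukin and interferon receptors lack an enzyme of their own and signal through Janus kinases (JAKs), which phosphorylate STAT transcription factors, and interferons in turn induce IRF factors, GTPases and antigen presentation genes. Fc receptors bind antibody and pass activating or inhibitory signals through tyrosine motifs (ITAMs and ITIMs) in myeloid cells. The cochlea holds resident macrophages, and blood monocytes enter it after damaging sound.

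Values are scaled counts, which are reads per gene multiplied by 1 factor per library, and they are given in the order specimens 6, 8 and 10 and then specimens 13, 18 and 20. Each library held between 9170390 and 11030863 reads on genes, and the median library of the sound trauma group held 10016833 and that of the MSC treated group 9771248. Fold changes are log2 of MSC treated over sound trauma on the log2(scaled count + 1) scale, with the standard error (SE), and were fitted by limma-trend over all 15970 genes that passed a filter on low counts. Of the 69 immune genes, 67 passed it, and Ccl12 and Il1rapl1 did not. Because the lists come from this contrast, the direction of each gene below was fixed by the choice and is given as a description.

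No immune gene passed limma's test at an adjusted p of 0.05. The smallest adjusted p (Benjamini-Hochberg) among the 67 genes was 0.954, and 0 of 15970 genes (0%) were called in all. At an unadjusted p under 0.05, 7 of the 67 immune genes were higher in MSC treated animals (among them Clec4a2, Cd27, Il13ra1, Il1a, Il1rn and Gbp8) beside 1.68% of all genes tested, and 0 were lower beside 0.67%. On the recovered reads, 0 genes were called by edgeR's quasi-likelihood test, by DESeq2 or by limma-voom. In these tests 6, 3 and 5 immune genes were higher at an unadjusted p under 0.05, beside 1.62%, 1.56% and 1.58% of all genes, and 0 were lower, beside 1.67%, 3.44% and 0.614%. Since the lists were drawn from this contrast, nothing is read from these counts.

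All 59 tested genes of the up list had a fitted value above 0, with a median log2 fold change of 0.48, against 0.36 over the tested genes of the whole up list and 0.00 over all genes. The 8 tested genes of the down list had a median of -0.42, against -0.49 in the whole down list. The SE of a single gene was between 0.12 and 0.83 with a median of 0.26, so that most fold changes were less than 2 SE from 0. Every MSC treated value lay above every sound trauma value for 12 of the 67 tested genes (4.25% of all genes tested) and for the untested Ccl12. These 13 genes were 21.7% of the 60 immune genes of the up list, beside 19.5% of the whole up list. The reverse order was found for Irf2bp1 (2.92% of all genes tested) and for the untested Il1rapl1.

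The sound trauma animals were not alike. Of the 60 up-list genes, 40 had their lowest value in specimen 6 (66.7%, beside 60.9% of the whole up list). A further 17 had it in specimen 8 (28.3%, beside 32.8%) and 2 in specimen 10. Specimens 6 and 8 both lay below the other 4 libraries for 42 of the 60 genes (70.0%), beside 68.2% of the whole up list and 17.4% of all genes tested. Specimen 10 lay within the range of the MSC treated animals for 41 of the 60 genes (68.3%, beside 58.7% of the whole up list and 55.8% of all genes tested) and below it for 14. The median difference from the mean of the MSC treated specimens was -0.76 in specimen 6, -0.50 in specimen 8 and -0.07 in specimen 10 on the log2 scale. In the whole up list these medians were -0.57, -0.42 and -0.04. The median fold change of the up-list genes, 0.48 with all libraries, was 0.27 without specimen 6, 0.42 without specimen 8 and 0.62 without specimen 10. Leaving out 1 library moved the fitted fold change by over 1.5 times in either direction for 52 of the 67 genes, most often when it was specimen 6 (32 genes) or specimen 10 (23 genes). The 15 genes that no single library moved so far included Il1a, Il1rn, Cd27, Il13ra1, Gbp8, Clec4a2, Fcgr2b and Fcgr3. Specimen 13 had the highest value for 25 of the 60 genes (41.7%), and for 21.6% of the whole up list.

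**Figure D1:**
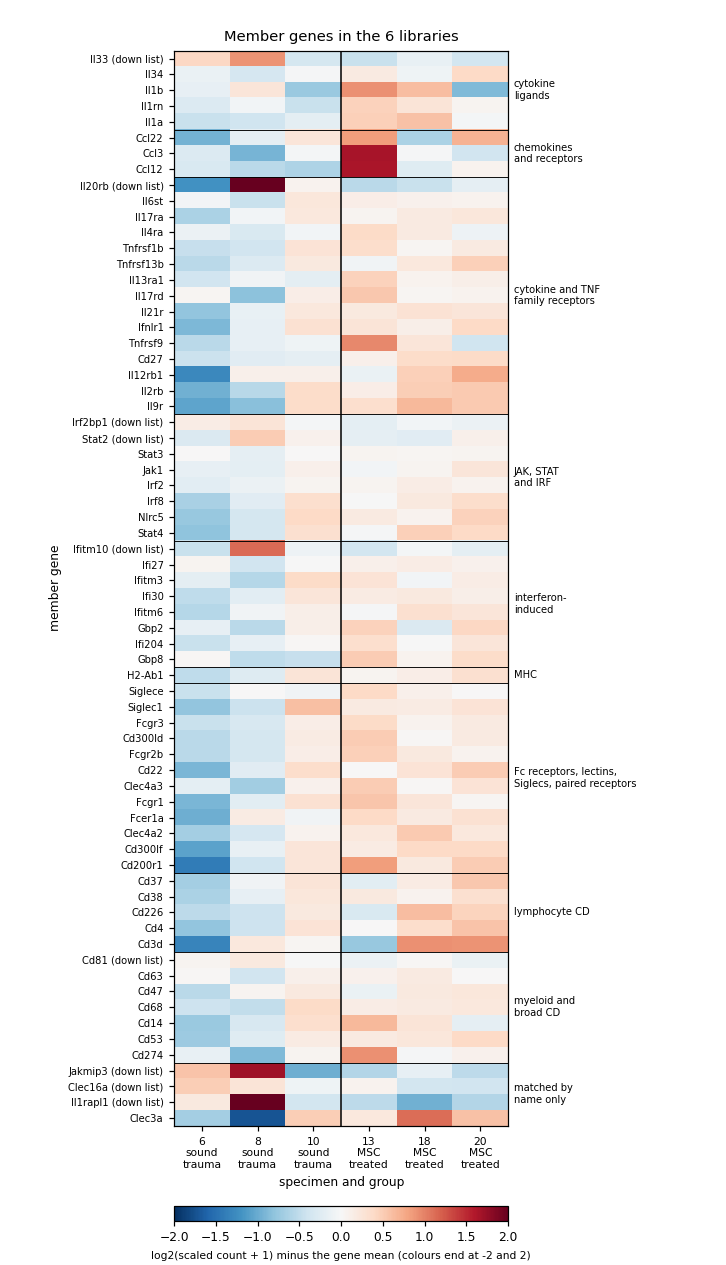
Heat map of 68 of the immune genes (rows, by role; genes of the down list are marked) in the 6 libraries (columns, by specimen and group). Colour is log2(scaled count + 1) minus the gene's mean over the 6 libraries; most up-list genes were below their mean (blue) in specimens 6 and 8 and near or above it in specimen 10 and the 3 MSC treated specimens.

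**Figure D2:**
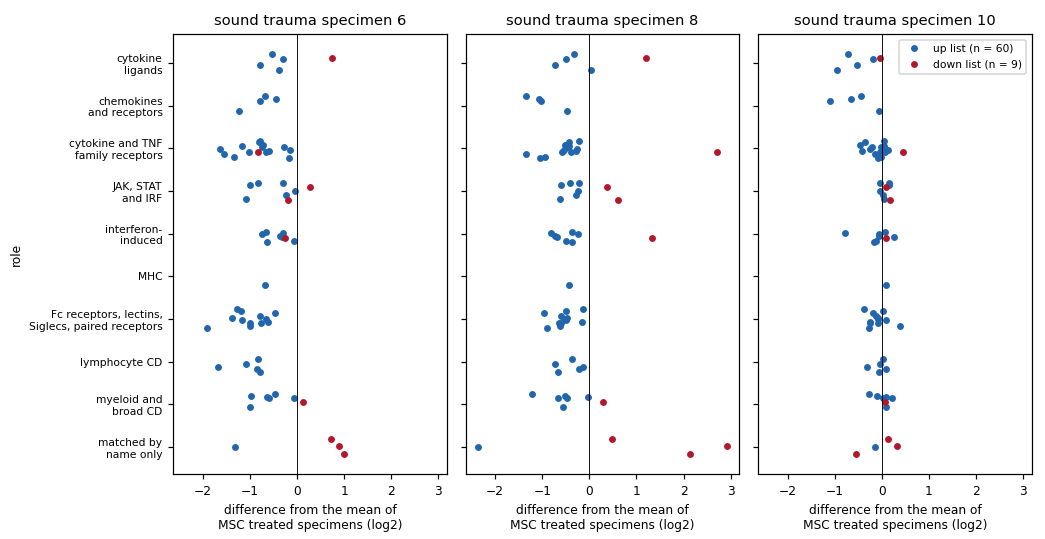
Difference of each sound trauma specimen (panels) from the mean of the 3 MSC treated specimens, on the log2(scaled count + 1) scale (x axis), by role (y axis); each point is 1 gene, blue for the up list (n = 60) and red for the down list (n = 9). The blue points lie mostly below 0 in specimens 6 and 8 and around 0 in specimen 10, with medians of -0.76, -0.50 and -0.07.

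Levels between genes can be compared only per length. By the authors' mean FPKM (fragments per kilobase of gene, scaled for library depth) in sound trauma, the most abundant immune genes were Ifitm3 at 159, Cd63 at 154, Cd81 at 132 and H2-Ab1 at 104. At the other end stood Il1rapl1 at 0.131 and the interleukin-9 receptor gene Il9r at 0.275. The genes of the 5 cytokine ligands lay between 1.24 (Il1a) and 7.95 (Il34).

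Promoter sequence was read for the genes that the RefSeq table of GRCm38.p6 held, which gave 53 of the 69. The 250 bases before each transcription start were searched on both strands for 4 letter patterns, and a gene was counted when any of its starts held a match. The interferon-stimulated response element (ISRE, searched as GAAA, any 2 bases and GAAA), bound by IRF and STAT complexes, was found in 5 of 53 genes (9.43%; 3.46% of all genes in the table), namely Gbp2, Irf2, Stat2, Stat4 and Tnfrsf1b. The gamma-activated site (GAS, TTCNNNGAA), a STAT motif, was found in 9 of 53 genes (17.0%; 8.13% of all genes). The NF-kB pattern, searched as GGGA, any 4 bases and CC, was found in 14 (26.4%; 19.7%) and the PU.1 pattern GAGGAAGT in Cd300ld and Cd37 (3.77%; 2.79%). A stretch can match more than 1 of these patterns, and a match does not show binding. Il1rn has 3 starts in the table, of which the one printed held a match and the other 2 held none of the 4 patterns. The lines below give 5 promoters, 4 with a match to a pattern in capitals and that of the chemokine gene Ccl3, which held none of the 4 patterns. Positions are counted back from 1, the base just before the start. Coordinates are those of GRCm38.p6 and not of the C57BL/6NJ genome to which the reads were aligned.
Gbp2 (interferon-induced GTPase; chr3:142620413-142620662, plus strand, ISRE on the reverse strand, 59 to 50 before the start): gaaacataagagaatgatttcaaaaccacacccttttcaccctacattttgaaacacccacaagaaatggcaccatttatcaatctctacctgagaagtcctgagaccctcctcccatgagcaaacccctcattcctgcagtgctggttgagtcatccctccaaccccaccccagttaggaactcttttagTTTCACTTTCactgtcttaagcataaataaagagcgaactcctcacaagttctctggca
Fcgr1 (high-affinity IgG receptor; chr3:96293970-96294219, minus strand, GAS, 109 to 101 before the start): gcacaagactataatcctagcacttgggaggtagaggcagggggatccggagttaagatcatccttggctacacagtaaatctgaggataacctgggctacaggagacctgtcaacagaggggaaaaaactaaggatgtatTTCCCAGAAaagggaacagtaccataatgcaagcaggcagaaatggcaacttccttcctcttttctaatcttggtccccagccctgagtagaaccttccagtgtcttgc
Clec4a2 (inhibitory lectin receptor; chr6:123122440-123122689, plus strand, GAS, 42 to 34 before the start): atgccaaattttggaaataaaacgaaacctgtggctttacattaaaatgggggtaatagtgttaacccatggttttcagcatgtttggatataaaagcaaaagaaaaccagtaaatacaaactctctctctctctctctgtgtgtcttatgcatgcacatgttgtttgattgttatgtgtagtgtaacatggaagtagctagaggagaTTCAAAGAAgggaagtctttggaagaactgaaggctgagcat
Il1rn (interleukin-1 receptor antagonist; chr2:24336610-24336859, plus strand, NF-kB, 54 to 45 before the start): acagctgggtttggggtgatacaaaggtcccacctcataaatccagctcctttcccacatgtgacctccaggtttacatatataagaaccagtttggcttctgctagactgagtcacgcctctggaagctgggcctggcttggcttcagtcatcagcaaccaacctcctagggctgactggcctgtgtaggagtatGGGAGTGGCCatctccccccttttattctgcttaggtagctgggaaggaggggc
Ccl3 (chemokine; chr11:83649379-83649628, minus strand, no match): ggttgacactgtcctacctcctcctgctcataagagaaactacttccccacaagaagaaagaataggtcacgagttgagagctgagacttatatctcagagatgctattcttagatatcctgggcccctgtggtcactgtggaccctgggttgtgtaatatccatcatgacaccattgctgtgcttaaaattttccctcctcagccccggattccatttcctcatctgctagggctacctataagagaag

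Among the 5 cytokine ligand genes, 4 were in the up list and Il33 in the down list. Il1a, which encodes the alarmin interleukin-1 alpha, was at 23.2, 23.9 and 27.7 in sound trauma and at 44.7, 48 and 31.1 in MSC treated animals. The groups did not overlap, and specimen 20 was the nearest to the sound trauma animals (log2 fold change 0.68 ± 0.28 SE). Il1rn encodes the antagonist that blocks the same receptor. It was at 108, 125 and 95.6 in sound trauma and at 181, 157 and 136 in MSC treated animals, again without overlap (0.52 ± 0.19 SE). The agonist gene and the gene of its natural blocker were both higher in each of the 3 MSC treated specimens. Both are up-list genes, so their shared direction was fixed by that choice.

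Il1b, the other agonist, behaved differently from specimen to specimen. It was at 76.5, 101 and 50.9 in sound trauma and at 162, 132 and 45.6 in MSC treated animals, so that specimens 13 and 18 lay above all sound trauma values and specimen 20 below all of them (0.43 ± 0.52 SE). The value of 0.43 was 0.08 without specimen 13 and 0.98 without specimen 20. Il34, a ligand of the macrophage growth factor receptor, was at 162, 141 and 174 and at 201, 167 and 233, with specimen 18 inside the sound trauma range (0.32 ± 0.18 SE, and 0.21 without specimen 20).

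Il33, a nuclear alarmin released by damaged cells, was at 176, 246 and 104 in sound trauma and at 96.6, 119 and 102 in MSC treated animals. High values were found in specimens 6 and 8, while specimen 10 was inside the MSC treated range. The log2 fold change was -0.64 ± 0.33 SE, and it was -0.35 without specimen 8 and -0.97 without specimen 10.

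All 4 chemokine system genes had their highest value in specimen 13, as did 21.6% of the whole up list. Ccl3, a macrophage chemokine that attracts leukocytes, was at 12.7, 7.65 and 15.2 in sound trauma and at 50.9, 15.3 and 11.6 in MSC treated animals. Specimen 13 stood apart, and specimens 18 and 20 were at or inside the sound trauma range to within 1 scaled count. These values rest on 8 to 49 reads, and the log2 fold change of 0.83 ± 0.60 SE was 0.21 without specimen 13.

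Ccl12, a monocyte chemokine of mice, had 5, 5 and 5 reads in sound trauma and 24, 6 and 8 reads in MSC treated animals. Its groups did not overlap, but specimens 18 and 20 lay within a few reads of the sound trauma animals and specimen 13 carried the difference. Ccl22, which attracts regulatory and type 2 helper T cells, was at 8.11, 14.3 and 19.7 and at 30.1, 10.2 and 27.2, with overlap (0.59 ± 0.53 SE, 0.27 without specimen 6 and 1.06 without specimen 18).

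**Figure D3:**
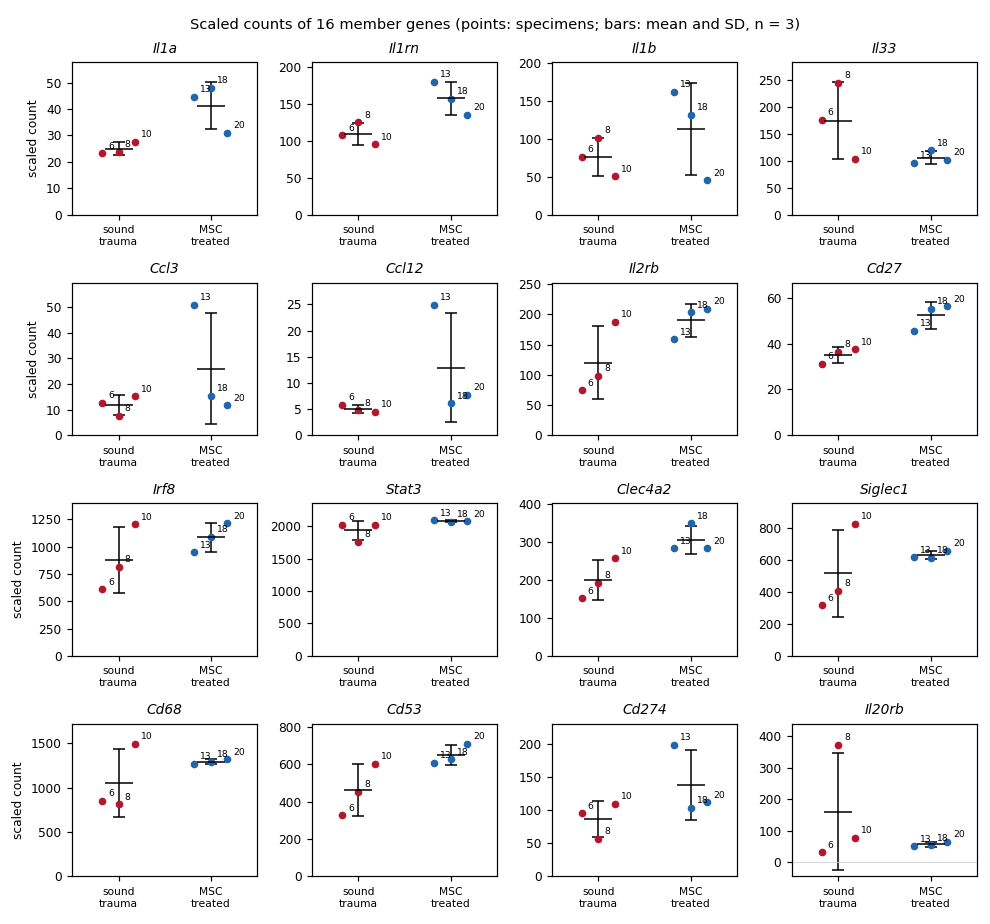
Scaled counts (y axis, 1 panel per gene) of 16 immune genes in sound trauma (red) and MSC treated (blue) specimens, numbered by specimen, with the mean and SD of n = 3 as bars. Il1a, Il1rn, Ccl12, Cd27, Stat3, Clec4a2 and Cd53 show groups that do not overlap, specimen 13 is apart in Ccl3, Ccl12 and Cd274, and specimen 8 is apart in Il20rb (373 against 31.3 to 77.7 in the other 5 libraries).

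Of the 15 genes of cytokine and TNF family receptors, 14 were in the up list, with fitted log2 fold changes from 0.19 to 1.01 and a median of 0.46, which was 0.30 without specimen 6. Specimens 6 and 8 were both below the other 4 libraries for 11 of the 14 genes, beside 68.2% of the whole up list. Il9r, whose product binds the mast cell and T cell growth factor interleukin-9, was at 8.11, 9.56 and 23.2 in sound trauma and at 22.9, 28.6 and 26.2 in MSC treated animals. Low values in specimens 6 and 8 stood against a specimen 10 inside the MSC treated range, on 7 to 28 reads (1.01 ± 0.44 SE). Il2rb, the shared chain for interleukin-2 and interleukin-15, also had specimens 6 and 8 as the 2 lowest libraries, at 74.2, 98.5 and 188 and at 159, 203 and 209 (0.76 ± 0.35 SE). Without specimen 10 its fold change was 1.14, and without specimen 6 it was 0.47.

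Only Cd27 and Il13ra1 of this role had groups without overlap. Cd27, a costimulatory TNF receptor of lymphocytes, was at 31.3, 36.3 and 37.5 in sound trauma and at 45.7, 55.1 and 56.3 in MSC treated animals (0.56 ± 0.23 SE). Il13ra1, which pairs with the interleukin-4 receptor, was at 148, 185 and 169 and at 266, 204 and 209.7 (0.43 ± 0.18 SE). In both genes specimen 10 was low together with specimens 6 and 8, unlike in most receptor genes.

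The receptors with the highest scaled counts were among those that differed least between groups. Il6st encodes gp130, the signal transducer of interleukin-6 and its relatives, and was at 1693, 1285 and 2062 in sound trauma and at 1926, 1863 and 1838 in MSC treated animals. The sound trauma values lay on both sides of the MSC treated ones, and the log2 fold change of 0.19 ± 0.19 SE was 0.0051 without specimen 8, 0.35 without specimen 10 and -0.02 when libraries were scaled to bone and stroma genes. The 8 genes of that scaling were all in the up list. By construction it thus lowers MSC treated values against sound trauma on average, though not in every library, here and for the other genes below. Il17ra, the common interleukin-17 receptor chain, was at 634, 944 and 1136 and at 1023, 1116 and 1143, with specimen 6 the lowest (0.31 ± 0.22 SE, and 0.08 without it).

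The other receptor genes are given by their fold change, and each moved by over 1.5 times when 1 library was left out. Il12rb1, a receptor chain for interleukin-12 and interleukin-23, was at 0.72 ± 0.48 SE, Il21r at 0.48 ± 0.27 SE and the type III interferon receptor gene Ifnlr1 at 0.52 ± 0.32 SE. Without specimen 6 these 3 values were 0.26, 0.20 and 0.19. In the TNF receptor family Tnfrsf9 (4-1BB) was at 0.53 ± 0.40 SE (0.19 without specimen 13), Tnfrsf13b (TACI) at 0.41 ± 0.25 SE and Tnfrsf1b (TNF receptor 2) at 0.39 ± 0.22 SE, the last 2 at 0.25 without specimen 6. Il17rd, an interleukin-17 receptor-like gene, was at 0.43 ± 0.30 SE (0.13 without specimen 8), and the interleukin-4 receptor gene Il4ra at 0.31 ± 0.16 SE (0.20 without specimen 13).

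Il20rb, a chain of the interleukin-20 receptors, was the one receptor gene of the down list. It was at 31.3, 373 and 77.7 in sound trauma and at 50.9, 54.1 and 65.0 in MSC treated animals. Specimen 8 alone was high, specimen 6 was the lowest of all 6 libraries, and the log2 fold change of -0.78 ± 0.83 SE turned to 0.19 without specimen 8.

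Of the JAK, STAT and IRF signalling genes, 6 were in the up list and 2 in the down list, and the median log2 fold change of the 6 was 0.27, or 0.13 without specimen 6. Stat3, which carries interleukin-6 and interleukin-10 signals, was at 2022, 1763 and 2024 in sound trauma and at 2090.3, 2070.2 and 2080.2 in MSC treated animals. The groups did not overlap, but the MSC treated values exceeded the nearest sound trauma values by a few percent of the level, and the log2 fold change of 0.11 ± 0.12 SE was 0.04 without specimen 8 and -0.10 when scaled to bone and stroma genes. Jak1, a kinase used by gp130 and interferon receptors, was at 2450.0, 2386 and 2946 and at 2645, 2835 and 3255, with overlap (0.17 ± 0.15 SE, 0.08 without specimen 20 and -0.03 when scaled to bone and stroma genes).

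Irf2, a repressor of interferon genes, was at 549, 581 and 658 in sound trauma and at 659, 705 and 666 in MSC treated animals. Specimen 10 lay 1 scaled count below specimen 13 to the nearest whole count, so the groups barely parted (0.19 ± 0.12 SE, and -0.02 when scaled to bone and stroma genes). Its corepressor gene Irf2bp1, in the down list, was at 625, 672 and 546 and at 492, 539 and 515, also without overlap (-0.25 ± 0.13 SE).

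Stat4 and Irf8 showed the animals' order more clearly. Stat4, the interleukin-12 signal transducer of lymphocytes, was at 25.5, 35.4 and 57.2 in sound trauma and at 44.7, 63.3 and 60.2 in MSC treated animals (0.56 ± 0.35 SE). Irf8, a factor of macrophage and dendritic cell development, was at 608, 818 and 1205 and at 951, 1092 and 1215 (0.36 ± 0.26 SE). Specimens 6 and 8 were the 2 lowest libraries in both genes, and without specimen 6 the Stat4 value was 0.29 and the Irf8 value 0.12. Without specimen 10 they were 0.86 and 0.61. Nlrc5, the activator of MHC class I genes, had the same 2 libraries lowest. Its fold change was 0.48 ± 0.31 SE, 0.21 without specimen 6 and 0.80 without specimen 10.

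Stat2, a transducer of type I interferon signals, was in the down list at 600.3, 1042 and 773 in sound trauma and at 644, 628 and 781 in MSC treated animals. Specimen 8 was high and specimen 6 the lowest of all, and the log2 fold change of -0.20 ± 0.22 SE was 0.00 without specimen 8.

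Interferon-induced genes made up 7 genes of the up list and 1 of the down list. Gbp8, a guanylate-binding protein gene, was at 55.6, 38.2 and 39.3 in sound trauma and at 77.9, 57.2 and 70.9 in MSC treated animals. The groups did not overlap, with specimens 6 and 18 the closest (0.63 ± 0.25 SE). Ifi27 was at 752, 557 and 722 and at 784, 809 and 772, likewise without overlap, and specimen 8 accounted for most of the difference (0.23 ± 0.15 SE, and 0.10 without that specimen).

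Ifitm3, which restricts virus entry, and Ifi30, a lysosomal reductase of antigen processing, had the highest scaled counts of this role. Ifitm3 was at 1007, 781 and 1513 in sound trauma and at 1405, 1119 and 1286 in MSC treated animals, so that the sound trauma animals spanned the whole MSC treated range (0.25 ± 0.25 SE, 0.035 without specimen 8 and 0.51 without specimen 10). Ifi30 was at 562, 692 and 944 and at 899, 917 and 867, with specimen 10 above all MSC treated specimens (0.32 ± 0.20 SE, 0.14 without specimen 6 and 0.52 without specimen 10). Gbp2, whose promoter holds the ISRE printed above, was at 152, 118 and 186 and at 234, 139 and 227, with specimen 18 inside the sound trauma range (0.38 ± 0.28 SE, 0.21 without specimen 8 and 0.62 without specimen 18). The DNA sensor gene Ifi204 had a fold change of 0.39 ± 0.19 SE and Ifitm6 one of 0.35 ± 0.21 SE, the latter 0.15 without specimen 6. How reads shared by near-identical genes were counted is not given in the sources used here, so the values of Gbp2 and Gbp8, of Ifitm3 and Ifitm6, of Ifi204 and, below, of Fcgr2b and Fcgr3 and of Clec4a2 and Clec4a3 are uncertain to that extent.

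Ifitm10, in the down list, was at 108, 325 and 137 in sound trauma and at 114, 143 and 128 in MSC treated animals. Specimen 8 alone was high, and the log2 fold change of -0.40 ± 0.41 SE was 0.08 without it.

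The only MHC gene was H2-Ab1, a class II chain by which antigen-presenting cells show peptides to CD4 T cells. It was at 1326, 1566 and 2241 in sound trauma and at 1947, 2058 and 2351 in MSC treated animals. Specimens 6 and 8 were below the other 4 libraries, and specimen 10 was inside the MSC treated range (0.34 ± 0.21 SE, 0.17 without specimen 6 and 0.55 without specimen 10).

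The 12 genes of Fc receptors, C-type lectins, Siglecs and paired receptors were all in the up list, with log2 fold changes from 0.34 to 1.03 and a median of 0.53, which was 0.29 without specimen 6. Specimen 6 held the lowest value for 11 of the 12 genes and specimen 13 the highest for 8, beside 60.9% and 21.6% of the whole up list. Cd200r1, an inhibitory receptor of myeloid cells, was at 10.4, 22 and 34.8 in sound trauma and at 53.0, 33.7 and 41.7 in MSC treated animals. Specimen 6 was far below the rest, and the fold change of 1.03 ± 0.47 SE was 0.59 without it.

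Clec4a2, an inhibitory lectin receptor of dendritic cells and macrophages, was at 151, 192 and 256 in sound trauma and at 283, 348 and 282 in MSC treated animals. The groups did not overlap, though specimen 10 was nearer to the MSC treated animals than specimens 6 and 8 were (0.63 ± 0.23 SE). Its unadjusted limma p of 0.0287 was the smallest of the immune genes, with an adjusted p of 0.954. Fcer1a, the IgE-binding chain of mast cells and basophils, was at 8.11, 19.1 and 16.1 and at 22.9, 19.4 and 21.4. Its groups parted by less than 1 scaled count, on 7 to 22 reads (0.60 ± 0.39 SE, and 0.26 without specimen 6).

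The IgG receptor genes shared the low value of specimen 6 and the high value of specimen 13. Fcgr3, an activating receptor, was at 501, 547 and 752 in sound trauma and at 897, 722 and 778 in MSC treated animals (0.43 ± 0.19 SE). Fcgr2b, the inhibitory one, was at 353, 399.6 and 564 and at 717, 585 and 541 (0.50 ± 0.21 SE). Fcgr1, whose promoter holds the GAS printed above, was at 54.5, 88.9 and 128 and at 153, 123 and 106 (0.55 ± 0.34 SE, and 0.23 without specimen 6). The activating and the inhibitory receptor gene differed by amounts within 1 SE of each other, and their shared direction was fixed by the choice of up-list genes. In all 3 genes specimen 10 was inside the MSC treated range.

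Siglec1, a sialic acid receptor of tissue macrophages, was at 315, 405 and 824 in sound trauma and at 617, 613 and 656 in MSC treated animals. Specimen 10 was the highest of all 6 libraries, and the fold change of 0.41 ± 0.34 SE became 0.12 when specimen 6 was left out and 0.81 when specimen 10 was. Of the remaining genes of this role, Cd300lf had a log2 fold change of 0.64 ± 0.33 SE and the B cell receptor gene Cd22 one of 0.53 ± 0.33 SE, which were 0.27 and 0.20 without specimen 6. Clec4a3 was at 0.54 ± 0.27 SE (0.32 without specimen 8), Cd300ld at 0.48 ± 0.25 SE and Siglece at 0.34 ± 0.19 SE (0.21 without specimen 6).

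All 5 lymphocyte antigen genes had their lowest value in specimen 6, and in all 5 specimen 10 was inside the MSC treated range. These were found for 60.9% and 58.7% of the whole up list. Cd3d, a chain of the T cell receptor complex, was at 4.64, 15.3 and 13.4 in sound trauma and at 7.27, 25.5 and 25.2 in MSC treated animals. Specimens 6 and 13 were low on 4 and 7 reads, so the groups overlapped (0.71 ± 0.65 SE, 0.23 without specimen 6 and 1.27 without specimen 13). Cd37, a tetraspanin of B cells, was at 596, 916 and 1148 and at 831, 1069 and 1387 (0.33 ± 0.29 SE, 0.06 without specimen 6 and 0.54 without specimen 10). Cd38, an NAD-consuming enzyme of leukocytes, was at 141, 196 and 259 and at 252, 231 and 277 (0.39 ± 0.24 SE, and 0.16 without specimen 6). The helper T cell and macrophage antigen gene Cd4 had a fold change of 0.62 ± 0.30 SE (0.38 without specimen 6) and Cd226 one of 0.49 ± 0.33 SE (0.31 without specimen 18).

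Of the 7 myeloid and broadly expressed CD genes, Cd53 had groups without overlap. This tetraspanin gene of leukocytes was at 327, 454 and 604 in sound trauma and at 609, 628 and 712 in MSC treated animals, with specimen 10 just below specimen 13 (0.53 ± 0.23 SE, and 0.31 without specimen 6). Cd274 encodes PD-L1, the ligand that restrains T cells through PD-1, and was at 95.0, 56.4 and 109 and at 198, 103 and 112. Specimen 13 was high and specimen 18 was inside the sound trauma range, and the fold change of 0.65 ± 0.36 SE was 0.36 without specimen 13.

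Cd68, a lysosomal protein gene of macrophages, was at 854, 812 and 1495 in sound trauma and at 1266, 1291 and 1316 in MSC treated animals. The MSC treated animals were tightly grouped, and the sound trauma animals lay on both sides of them (0.35 ± 0.24 SE, 0.19 without specimen 8 and 0.63 without specimen 10). Cd47, the signal that protects cells from phagocytosis, was at 1342, 2036 and 2232 and at 1789, 2237 and 2281, and its log2 fold change of 0.19 ± 0.22 SE was -0.03 without specimen 6 and -0.01 when scaled to bone and stroma genes. Cd81, a tetraspanin gene in the down list, was at 2968, 3297 and 2859 and at 2644, 2904 and 2604, with specimen 18 inside the sound trauma range (-0.16 ± 0.13 SE, and -0.10 without specimen 8). The endotoxin co-receptor gene Cd14 had a fold change of 0.49 ± 0.34 SE, which was 0.24 without specimen 6. That of the endosomal tetraspanin gene Cd63 was 0.18 ± 0.16 SE, and it was 0.02 without specimen 8 and -0.03 when scaled to bone and stroma genes.

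Across the 9 genes of the down list, specimen 8 held the highest value for 8 and specimen 6 for Clec16a. The whole down list was alike, with its highest value in specimen 8 for 69.0% of its genes and a median difference of 1.10 in that specimen. Set against the mean of the MSC treated specimens, they differed by a median of 0.28 in specimen 6, 1.21 in specimen 8 and 0.09 in specimen 10 on the log2 scale, and their median fold change of -0.42 was -0.14 without specimen 8.

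The naming rule also drew in 4 genes without an immune role in these lists. Clec3a, a cartilage lectin gene, was at 20.9, 9.56 and 48.2 in sound trauma and at 39.5, 74.6 and 51.4 in MSC treated animals, the largest fitted fold change of the 67 genes (1.27 ± 0.59 SE, and 0.73 without specimen 8). Jakmip3, a gene of neural tissue, was at 98.5, 218 and 33.1 and at 43.6, 59.2 and 45.6, with specimen 10 the lowest library. Its fold change of -0.86 ± 0.65 SE was -0.22 without specimen 8 and -1.56 without specimen 10. Clec16a, a gene of endosome and mitochondrion turnover, was at 938, 795 and 624 and at 700.2, 517 and 508 (-0.45 ± 0.20 SE). The synaptic adhesion gene Il1rapl1 had 5, 28 and 4 reads in sound trauma and 3, 2 and 3 reads in MSC treated animals, at or under the floor of 3 reads, so no fold change is given.

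Genes around the immune genes were counted from fixed pathway lists, which also held some of the immune genes themselves. A gene had a name only if the study listed it, so these are counts of listed genes. Of all genes in the table, 2.77% were in the up list and 6.67% in the down list. The shares were larger among the 15970 genes tested, with 1127 in the up list and 2542 in the down list. In the JAK-STAT list 8 of 27 genes had a name, 5 in the up list and 3 in the down list. The ITAM and ITIM list had 9 of 20 named, all in the up list, with Ptpn6, Pik3cd and Plcg2 at the highest scaled counts. For interleukin-1 and NF-kB signalling 4 of 28 were named, for MHC class II presentation 3 of 16, all of them in the up list, and for the interferon response 5 of 30, with 4 in the up list. Of the named genes, 5 of 8 in the JAK-STAT list and 0 of 9 in the ITAM and ITIM list were immune genes described above. They were also 3 of 4 in the interleukin-1 list, 2 of 3 for MHC class II and 3 of 5 for the interferon response. Limma called 0 genes of these lists in either direction, and the unadjusted p was under 0.05 for 1 gene of the ITAM and ITIM list and for Il1a and Il1rn of the interleukin-1 list (1.68% of all genes tested were higher at this p). Ciita, the master activator of MHC class II genes, was at 57.9, 121 and 140 in sound trauma and at 166, 148 and 168 in MSC treated animals.

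Markers of the cell types that a dissected cochlea can hold are given beside the immune genes. A marker had a name only if the study listed it, and all named macrophage, granulocyte, B cell, T cell, bone and cochlea markers were in the up list and all named neuron and muscle markers in the down list. The direction of these markers between the groups was thus largely fixed by that choice and carries no information of its own about cell types. The choice did not set the order within a group. Specimen 10 of the sound trauma group held the highest sum of any library for the named macrophage, granulocyte, bone and cochlea markers. In bulk tissue fewer cells of a type and less RNA per cell cannot be told apart. Summed over the 60 up-list genes, the scaled counts were 22180, 23622 and 32095 in sound trauma and 30947, 31239 and 32625 in MSC treated animals. The 3 named macrophage markers of 18 (Adgre1, Mrc1 and Cd68, the last an immune gene of the up list) summed to between 1502 and 3186 in sound trauma and between 2719 and 2911 in MSC treated animals. The 4 named granulocyte markers of 17 (Ly6g, Elane, Mpo and Prtn3) summed to 9114 to 17584 and to 13503 to 16101. Specimens 6 and 8 were the 2 lowest libraries in these sums, as they were for 68.2% of the whole up list.

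The 8 named bone and stroma markers of 16 summed to 82797, 92845 and 151064 in sound trauma and to 103107, 126559 and 135556 in MSC treated animals. The 6 named hair cell and cochlea markers of 15 summed to 1939, 2065 and 4856 and to 3366, 4202 and 3526. Divided by the bone and stroma sum, the up-list immune genes came to 0.268, 0.254 and 0.212 in sound trauma and to 0.300, 0.247 and 0.241 in MSC treated animals, and the groups overlapped, as they did in the undivided sums. Because the divisor holds up-list genes only, dividing by it lowers MSC treated values against sound trauma on average by construction.

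The 14 named skeletal muscle markers of 16 held between 0.410% and 8.52% of the scaled total in sound trauma and between 0.898% and 5.31% in MSC treated animals, with specimens 6 and 13 the highest. The 14 named central neuron markers of 16 summed to 12732, 47635 and 5501 and to 6275, 8161 and 6946, with specimen 8 the highest, as it was for 69.0% of the whole down list. The 2 named B cell markers of 15 summed to 176 to 390 in sound trauma and to 291 to 553 in MSC treated animals, and 1 of 16 T and NK cell markers was named (Cd3d). Of the 16 erythroid and megakaryocyte markers 2 were named, Ank1 in the down list and Gp9 in the up list, and their sums of 5521 to 6286 and of 4896 to 5158 were mostly Ank1. No named marker was at 0 in any library. The part of tissue make-up in the immune gene values was not tested.

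**Figure D4:**
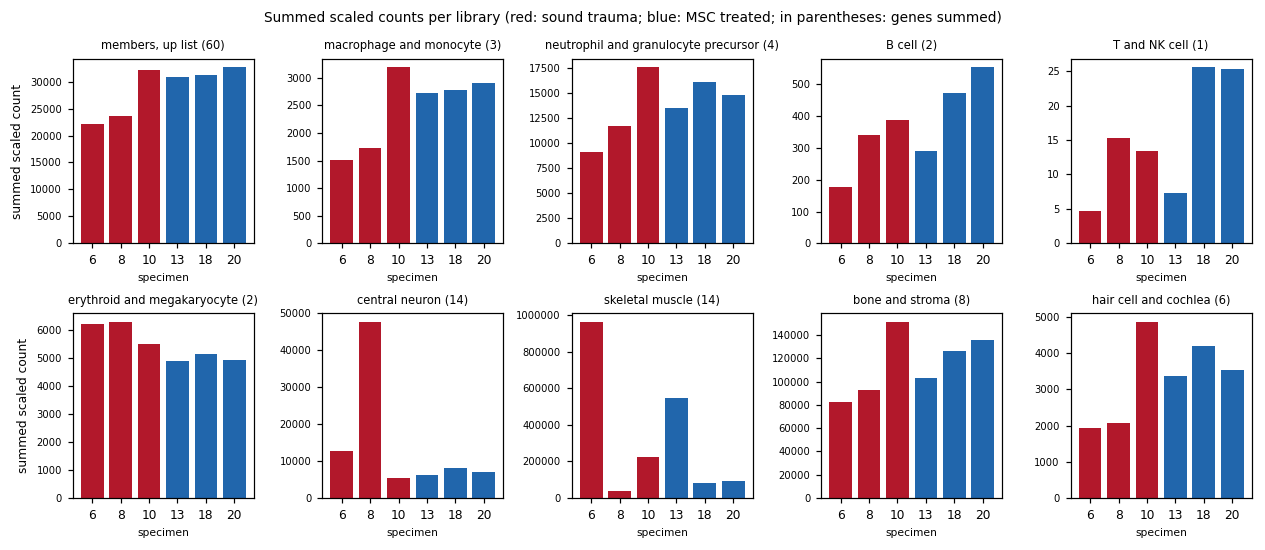
Summed scaled counts (y axis, from 0) in each of the 6 specimens (x axis; red sound trauma, blue MSC treated) for the 60 up-list immune genes and for the named markers of 9 cell types or tissues, with the number of genes summed in parentheses. Specimens 6 and 8 are lowest for the immune genes and for macrophage, granulocyte, bone and cochlea markers, while specimen 8 is highest for neuron markers and specimens 6 and 13 for muscle markers.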

How the data were processed

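RNA of left cochleae was made into NuGen Universal Plus libraries and sequenced on a NovaSeq, and the authors trimmed and aligned reads with the AIR package to the C57BL/6NJ genome. The deposited signal for each of 41096 genes is a read count multiplied by 1 TMM-type factor per library. Every value (100%) was a whole multiple of that factor within 0.01 of a read, from which reads were recovered. The authors' deposited lists gave symbols and a mean FPKM per group, used only to compare levels between genes. Their FDR (NOISeq) and fold change columns were not used. The counting tool and its use of strand are not given in the sources used here.

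limma 3.58.1 (R 4.3.3) fitted log2(scaled count + 1) with a trend over 15970 genes kept by filterByExpr in edgeR 4.0.16, out of 25369 with a read. The test was limma's because the values are scaled and not counts. Alternatives were pseudocounts of 0.1 and 10, no filter, at least 10 reads in every library, scaling by total counts, upper quartile or median ratio, edgeR's quasi-likelihood test, DESeq2 1.42.0, limma-voom, a robust fit, and each library left out. Scaling by the named bone and stroma markers was chosen after seeing the data. Tests were tested on simulated data. The floor of 3 reads was a detection limit and did not cover counting error, which was not estimated on its own.

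The genes, roles, pathway and marker lists were chosen with earlier results of these data known. Named with every library's value were, in each role, the 2 genes with the highest mean scaled count, the gene with the largest absolute fold change, up to 3 tested genes whose groups did not overlap, and genes named in the paper. Il1b, Ccl12, Ccl22, Il2rb, Il20rb, Irf8, Stat2, Gbp2, Ifitm10, Fcgr1, Fcgr2b, Cd68, Il1rapl1 and Ciita were added after their values were seen. Figures were drawn with matplotlib 3.10.9 (Python 3.11.15, pandas 2.3.3). An exact permutation test of 3 against 3 cannot go below a two-sided p of 0.1 and was not used. No genome of the files' build was used here, so gene positions are not given. Values of 1 chemokine system gene are not reported here.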

Additional observations from a re-analysis of the deposited data

How the results depend on the processing

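Under the alternatives, 1189 of 1199 fitted log2 fold changes of the 67 tested immune genes kept their direction, and no alternative made an immune gene pass an adjusted p of 0.05. The 10 changes of direction fell in 9 genes. When libraries were scaled to bone and stroma markers, an alternative chosen after seeing the data, the values were -0.016 for Irf2, -0.035 for Jak1, -0.10 for Stat3, -0.017 for Il6st, -0.0085 for Cd47 and -0.026 for Cd63. The 8 genes of this scaling are all in the up list, so by construction it lowers MSC treated values against sound trauma on average. The same scaling moved the median of all genes by -0.20 and put 76.5% of genes lower in MSC treated animals, against 49.8% in the reported values and 38.1% when scaled by total counts. The median of the up-list immune genes was 0.28 under it, a shift that a scaling gives to all genes alike. Over the libraries left out in turn, Cd47 ranged from -0.029 (without specimen 6) to 0.34 (without specimen 10). Stat2 ranged from -0.40 to 0.00022, Il20rb from -1.58 to 0.19 and Ifitm10 from -0.72 to 0.075, the lower value being without specimen 6 and the higher without specimen 8.

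With each library left out in turn, the median log2 fold change ranged from 0.27 (without specimen 6) to 0.62 (without specimen 10) in the up list and from -0.57 (without specimen 10) to -0.14 (without specimen 8) in the down list. The number of genes called by limma ranged from 0 to 1, the 1 being without specimen 10. Immune genes whose groups did not overlap ranged from 16 to 55, against 15 with all libraries (7.16% of all genes tested). The 55 were found without specimen 10 (34.4% of all genes tested), 29 without specimen 13 (18.9%) and 26 without specimen 18 (12.5%). There were 21 without specimen 20 (12.3%), 16 without specimen 6 (14.4%) and 16 without specimen 8 (13.6%). Smaller groups part more often by construction. Immune genes at an unadjusted p under 0.05 numbered 34 without specimen 10 (15.5% of all genes tested) and 1 to 4 without another library (1.07% to 1.73%), against 7 with all (2.35%). The cause of the dependence on specimen 10 was not tested. No paired analysis was possible because the groups share no specimen numbers. With 3 animals per group, the median SE of an immune gene was 0.26.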
